A study of Mus musculus with 9 samples.

Results

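Transcript levels of the Notch pathway were followed through muscle differentiation in control cells and in cells edited at a clock gene. The 10 genes described are the receptors Notch1, Notch2 and Notch3, the ligands Dll1, Jag1 and Jag2, and the Hes/Hey genes Hes1, Hes6, Hey1 and Heyl. They were chosen by symbol with earlier results of these data known, and all 10 were found among the 47729 genes of the count table. All 10 passed the low-count filter of at least 1 CPM (a count scaled to the size of its library) in at least 3 libraries, which left 13324 genes for testing.

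The cells were C2C12, an established mouse myoblast line that fuses into myotubes once serum is reduced. WT denotes cells that received CRISPR-Cas9 with a guide that has no target, Per1KO denotes cells edited at the clock gene Per1, and Per2KO denotes cells edited at Per2. Day 0 cells grew in 10% FBS, and cells of days 3 and 5 had been moved to 5% horse serum. Each of the 3 genotypes gave 1 library per day, so there were 9 poly(A) RNA-seq libraries and no replicate of any genotype on any day. The labels give "Whole Muscle" as the tissue, whereas the protocol describes the cell line only, and they do not say whether a knockout is 1 clone or a mixed population.

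Notch receptors are membrane proteins that a ligand on a neighbouring cell activates. A pull from the bound ligand exposes the receptor to ADAM proteases and then to gamma-secretase, and the freed intracellular part joins RBPJ and Mastermind proteins in the nucleus. The best known targets are Hes and Hey genes, which encode basic helix-loop-helix repressors, and in muscle precursors an active Notch receptor is known to hold back differentiation.

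Counts were divided by library size scaled with trimmed means of M values (TMM), and every level below is in such CPM unless a length is named. Genotype and day effects were fitted together over all 9 libraries with edgeR's quasi-likelihood test, so that a genotype difference is judged by how it repeats over the 3 days, and a day difference by how it repeats over the 3 genotypes. This fit has no term for a day effect that differs by genotype. Such a difference adds to its error and can keep a gene from being called. A gene was called when its Benjamini-Hochberg adjusted p over all 13324 genes was under 0.05. The p-values measure how evenly a difference recurs across days or genotypes, with the variance of each gene drawn towards that of the other tested genes. They do not measure the spread between independently made cultures. A separate fit tested whether the mean of days 3 and 5 moved away from day 0 by another amount in the knockouts than in WT, which is called the difference in response.

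WT libraries held 5020385 to 6773320 counts and knockout libraries 41997763 to 48051824. The WT titles alone carry a further suffix, whose meaning they do not give, and the knockout columns of the count table alone carry a C2C12 prefix. Depth, and whatever these marks stand for, therefore cannot be told apart from genotype wherever WT is compared. A count of 0 allows up to 3 counts, or 0.443 to 0.598 CPM in WT and 0.0624 to 0.0714 CPM in the knockouts. Intervals given with single levels are exact Clopper-Pearson intervals at 95% and cover counting error only. The edited genes still gave reads. Per1 was at 35.6, 33.8 and 31 CPM in WT on days 0, 3 and 5, at 20.9, 32.4 and 28.9 CPM in Per1KO, and at 16.5, 30.4 and 32.9 CPM in Per2KO. Per2 was at 9.74, 11.5 and 20.5 CPM in WT, at 6.59, 9.44 and 10.6 CPM in Per1KO, and at 3.50, 9.13 and 8.38 CPM in Per2KO. Counts over a whole gene do not show a small edit, so these values do not check the labels. Myog, a transcription factor switched on as myoblasts differentiate, reached 124, 868 and 1060 CPM in WT, 5.35, 262 and 351 CPM in Per1KO, and 2.91, 226 and 271 CPM in Per2KO. Several defining markers of other cell types were absent or nearly so. Ptprc had at most 1 count, Pecam1 at most 4 and Sox10 at most 1 in any library, and Adipoq, Cd3e and Adgre1 had 0 in all 9. Summed endothelial markers (5 genes) ranged from 1.55 to 2.86 CPM in WT and from 0.973 to 3.75 CPM in the knockouts. Summed immune markers (5 genes) reached at most 2.86 CPM and adipocyte markers (5 genes) at most 0.880 CPM in any library, and Schwann and neural markers (5 genes) summed to 39.6 to 197 CPM, nearly all of it the tubulin Tubb3.

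Against WT, 3 of the 10 genes were called in each knockout and each of them was lower. In Per1KO these were Heyl, Jag1 and Jag2, where 19.3% of all tested genes were called, 9.26% higher and 10.1% lower. In Per2KO they were Heyl, Jag2 and Hes6, where 19.9% were called, 9.31% higher and 10.6% lower. With offsets for GC content and transcript length, only Heyl stayed called in each knockout. No member was called higher in a knockout by edgeR, either at the adjusted threshold or at an unadjusted p under 0.05, and DESeq2 called 0 higher as well. The median log2 fold change of the 10 genes was -0.39 in Per1KO and -0.60 in Per2KO, beside -0.02 and -0.01 over all tested genes. Both knockouts were compared with the same 3 WT libraries, so these values are not independent of each other.

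**Figure D1:**
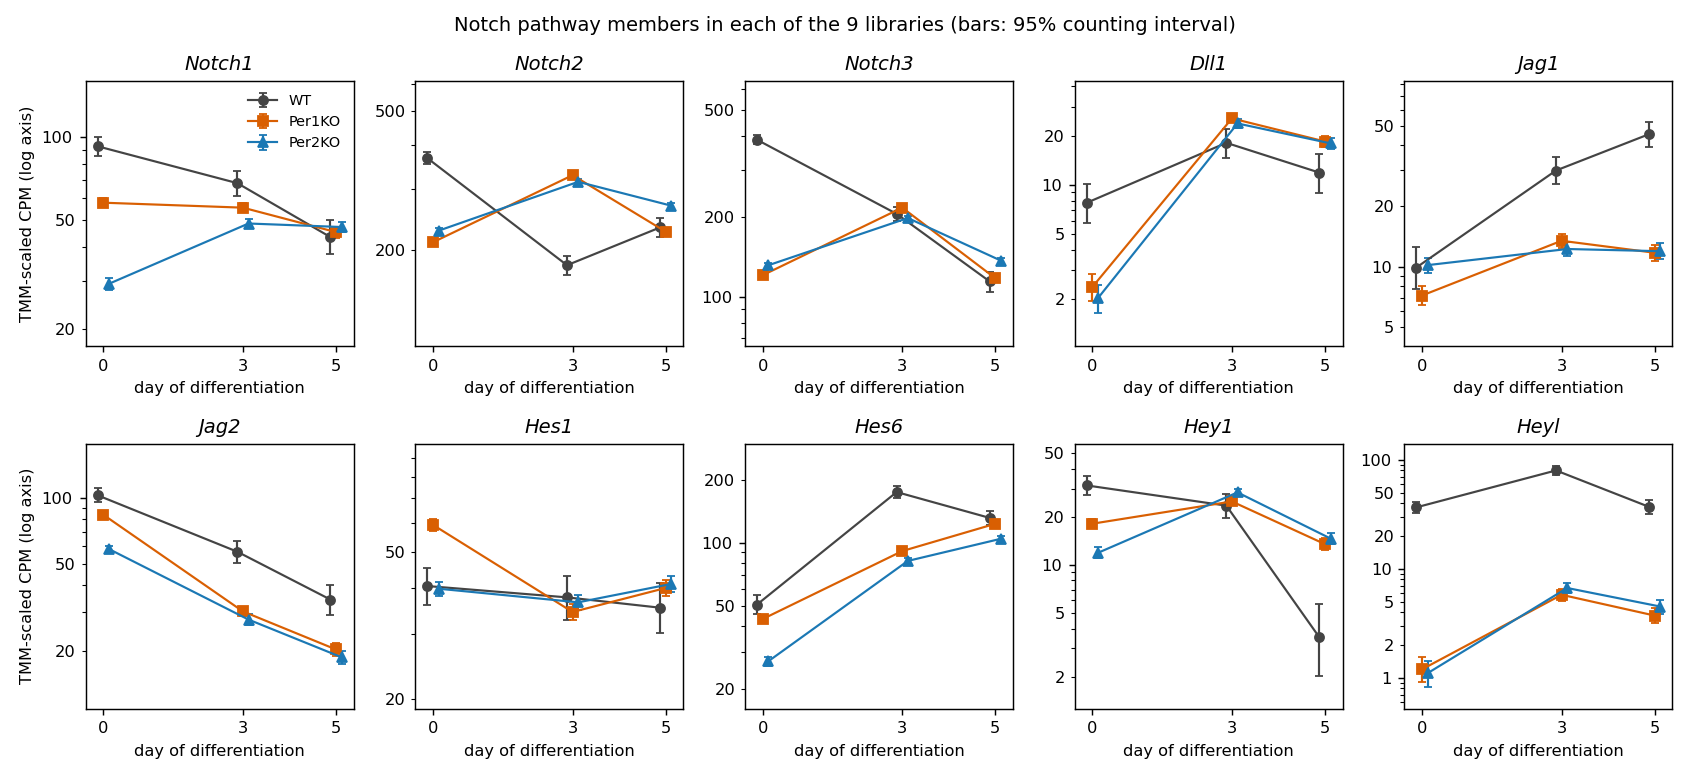
Level of each gene in each of the 9 libraries, as TMM-scaled CPM on a log axis against the day of differentiation, with grey circles for WT, orange squares for Per1KO and blue triangles for Per2KO. Vertical bars are 95% counting intervals, and lines join libraries of 1 genotype. Heyl is the gene whose WT and knockout points are far apart on all 3 days, and Hey1 is at 3.52 CPM in WT at day 5, below the other 8 libraries.

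The receptors stood in different order on different days rather than apart by genotype. Notch1 was at 92.6, 68.1 and 43.3 CPM in WT on days 0, 3 and 5, at 57.8, 55.4 and 45.2 CPM in Per1KO, and at 29.3, 48.5 and 47.1 CPM in Per2KO. The WT library was the highest on days 0 and 3 and the lowest on day 5, and the genotypes overlap. Notch3, a receptor also found on satellite cells, was at 388, 205 and 114 CPM in WT, at 120, 216 and 117 CPM in Per1KO, and at 131, 197 and 137 CPM in Per2KO. WT day 0 stands above every other library, and from day 3 the genotypes lie close together. Notch2 was at 367, 181 and 233 CPM in WT, at 211, 328 and 226 CPM in Per1KO, and at 228, 314 and 269 CPM in Per2KO. Its WT level was highest on day 0, whereas both knockouts had their highest level on day 3.

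None of the 3 receptors was called for genotype or for day by edgeR. Notch1 was at -0.35 ± 0.28 (log2 fold change ± SE, adjusted p = 0.415) in Per1KO and -0.67 ± 0.29 (adjusted p = 0.142) in Per2KO. Notch3 was at -0.59 ± 0.37 (adjusted p = 0.300) and -0.53 ± 0.37 (adjusted p = 0.352), and Notch2 at -0.04 ± 0.29 and 0.05 ± 0.29. The Per1KO value of Notch2 ran from -0.44 to 0.40 with libraries or days left out. It takes the opposite sign under 4 other settings as well and lies at 0.23 with offsets for GC content and transcript length. With those offsets Notch2 and Notch3 were called lower at day 5 than at day 0, by -0.66 and -0.98 (adjusted p = 0.0185 and 0.0244), values that were -0.15 and -0.63 without them.

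The response to differentiation differed between WT and the knockouts for 3 of the 10 genes, Notch3 among the receptors and Dll1 and Heyl below. From day 0 to day 3, Notch3 differed by a log2 value of -0.92 in WT, 0.84 in Per1KO and 0.59 in Per2KO. By day 5 its difference from day 0 was -1.77 in WT, beside -0.04 and 0.06 in the knockouts. The difference in response was 1.71 ± 0.18 (log2, adjusted p = 0.00788), so the WT decline had no counterpart of its size in the knockouts. Over all tested genes, 4.95% were called in this fit, 3.5% higher and 1.45% lower. For Notch2 the difference in response was 1.19 ± 0.29 (adjusted p = 0.0646) and for Notch1 0.98 ± 0.38 (adjusted p = 0.181), and edgeR called neither, while the DESeq2 Wald test called Notch2 (1.17, adjusted p = 0.00678). All 3 values rest on the single WT day 0 library as their base in WT, and the Notch3 call is lost without Per2KO day 0 (1.75, adjusted p = 0.0623).

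**Figure D2:**
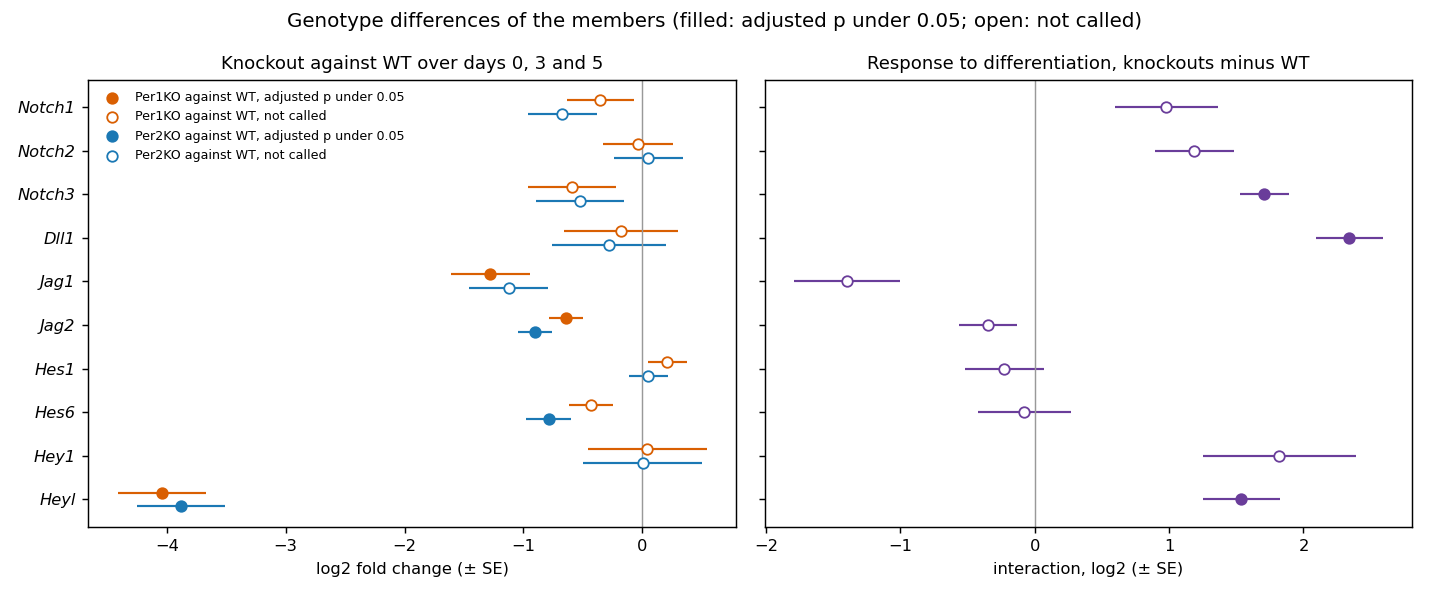
Log2 fold changes with standard errors for the 10 genes: at left Per1KO (orange) and Per2KO (blue) against WT over days 0, 3 and 5, at right the difference between the knockouts' and WT's response to differentiation. Filled points have an adjusted p under 0.05 in edgeR's quasi-likelihood test. Heyl lies at -4.04 and -3.88 at left, and Notch3, Dll1 and Heyl are the filled points at right.

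Set per kilobase of longest transcript, Notch2 and Notch3 made up most receptor RNA in every library. Notch1 contributed 7.50% to 14.8% of the length-scaled receptor sum. In WT the larger share passed from Notch3 (52.0% at day 0 and 51.1% at day 3) to Notch2 (54.1% at day 5). In the 6 knockout libraries Notch2 held 48.8% to 53.7% throughout and Notch3 35.8% to 42.1%. The summed level was 93.2, 49.98 and 41 CPM per kb in WT on days 0, 3 and 5. It was 41.2, 64.1 and 41.0 CPM per kb in Per1KO and 41.1, 59.7 and 47.6 CPM per kb in Per2KO. WT thus had its highest value at day 0 and each knockout at day 3. These shares have no replicate and no test.

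The ligands moved in opposite directions during differentiation. Dll1, a Delta-type ligand found on differentiating myoblasts, was at 7.77, 18.1 and 11.9 CPM in WT on days 0, 3 and 5. It was at 2.37, 25.5 and 18.4 CPM in Per1KO and at 2.03, 23.7 and 17.9 CPM in Per2KO. In each genotype day 0 is the lowest library, and both knockouts start below WT and end above it. Across genotypes Dll1 rose by 2.79 ± 0.49 at day 3 (log2, adjusted p = 0.00488) and by 2.33 ± 0.49 at day 5 (adjusted p = 0.00689). At day 3, 4 of the 10 genes were called, 3 higher and 1 lower, where 35.0% of all tested genes were called, 18.1% higher and 16.9% lower. At day 5, 5 were called, 4 higher and 1 lower, where 46.1% were called, 23.2% higher and 22.9% lower. Both shares lie near those of all genes. The Dll1 calls were lost when either knockout genotype was left out (2.34 and 2.30 at day 3, 1.88 and 1.8 at day 5), and its day 5 call also without Per1KO day 0 (1.94).

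The rise of Dll1 was larger in the knockouts than in WT. Between day 0 and day 3 the log2 difference was 1.21 in WT, 3.39 in Per1KO and 3.51 in Per2KO. Between day 0 and day 5 it was 0.61, 2.92 and 3.11. The difference in response was 2.34 ± 0.25 (log2, adjusted p = 0.00788). WT day 0 rests on 55 counts (95% interval 5.85 to 10.1 CPM) and lies above the Per1KO interval of 1.96 to 2.84 CPM. The adjusted p was 0.0538 without Per2KO day 0, with a value of 2.26. Averaged over the days, no genotype difference of Dll1 was called (-0.18 ± 0.48 in Per1KO and -0.28 ± 0.48 in Per2KO). The differing responses enter the error of that fit. Without WT day 0 the Per1KO value of Dll1 turned to 0.58 and was called higher (adjusted p = 0.0257), and without all of day 0 it was 0.55 (adjusted p = 0.0461).

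Jag2, a Serrate-type ligand, went down in all 3 genotypes. It was at 103, 56.7 and 34.3 CPM in WT, at 83.8, 30.3 and 20.3 CPM in Per1KO, and at 58.4, 27.8 and 18.7 CPM in Per2KO. The order WT, Per1KO, Per2KO held on each day, while the ranges of the genotypes overlap. Jag2 fell by 1.14 ± 0.14 at day 3 (log2, adjusted p = 8.77e-04) and by 1.77 ± 0.14 at day 5 (adjusted p = 6.77e-05). It was lower than WT by -0.64 ± 0.14 in Per1KO (adjusted p = 0.0180) and -0.91 ± 0.14 in Per2KO (adjusted p = 0.00409). With the GC and length offsets the genotype differences of Jag2 shrank to -0.25 (adjusted p = 0.402) and -0.51 (adjusted p = 0.114) and were no longer called, whereas both day calls held. The Per1KO call was also lost without WT day 5 (-0.62), Per1KO day 3 (-0.55) or Per1KO day 5 (-0.58).

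Jag1, the other Serrate-type ligand, reached its highest levels in WT on days 3 and 5. It was at 9.89, 29.9 and 45.3 CPM in WT, at 7.18, 13.4 and 11.7 CPM in Per1KO, and at 10.2, 12.2 and 11.9 CPM in Per2KO. The 3 genotypes were close together at day 0, and WT stands above both knockouts on days 3 and 5. At day 5 the log2 difference from WT was -1.95 in Per1KO and -1.92 in Per2KO, with no test. Over the days Jag1 was lower by -1.28 ± 0.33 in Per1KO (adjusted p = 0.0332). In Per2KO it was at -1.12 ± 0.33, which edgeR did not call (adjusted p = 0.0512) and the DESeq2 Wald test did (-1.11, adjusted p = 0.00748). Across genotypes it rose at day 5 by 0.96 ± 0.33 (adjusted p = 0.0445) and was at 0.82 ± 0.32 at day 3 (adjusted p = 0.0849, and 0.0417 in the DESeq2 Wald test).

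The calls of Jag1 were lost under many settings. Its difference in response, -1.40 ± 0.39, was not called (adjusted p = 0.0910), although the DESeq2 Wald test called it (-1.41, adjusted p = 0.0150). The Per1KO call was lost without the low-count filter (-1.2), with protein-coding genes only (-1.24), with the GC and length offsets (-1.19, adjusted p = 0.0504), and without WT day 3 (-1.27), WT day 5 (-0.84), Per1KO day 0 (-1.31), day 3 (-1.39) or day 5 (-1.11), or Per2KO day 3 (-1.27). It was also lost without all of day 3 (-1.34) or day 5 (-0.86). The day 5 rise was lost under the same 3 settings, without 7 of the 9 single libraries and without all of WT, where it was 0.45, or Per1KO, where it was 1.12. Without WT day 0 or WT day 5 that rise was 0.57 or 0.60.

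**Figure D3:**
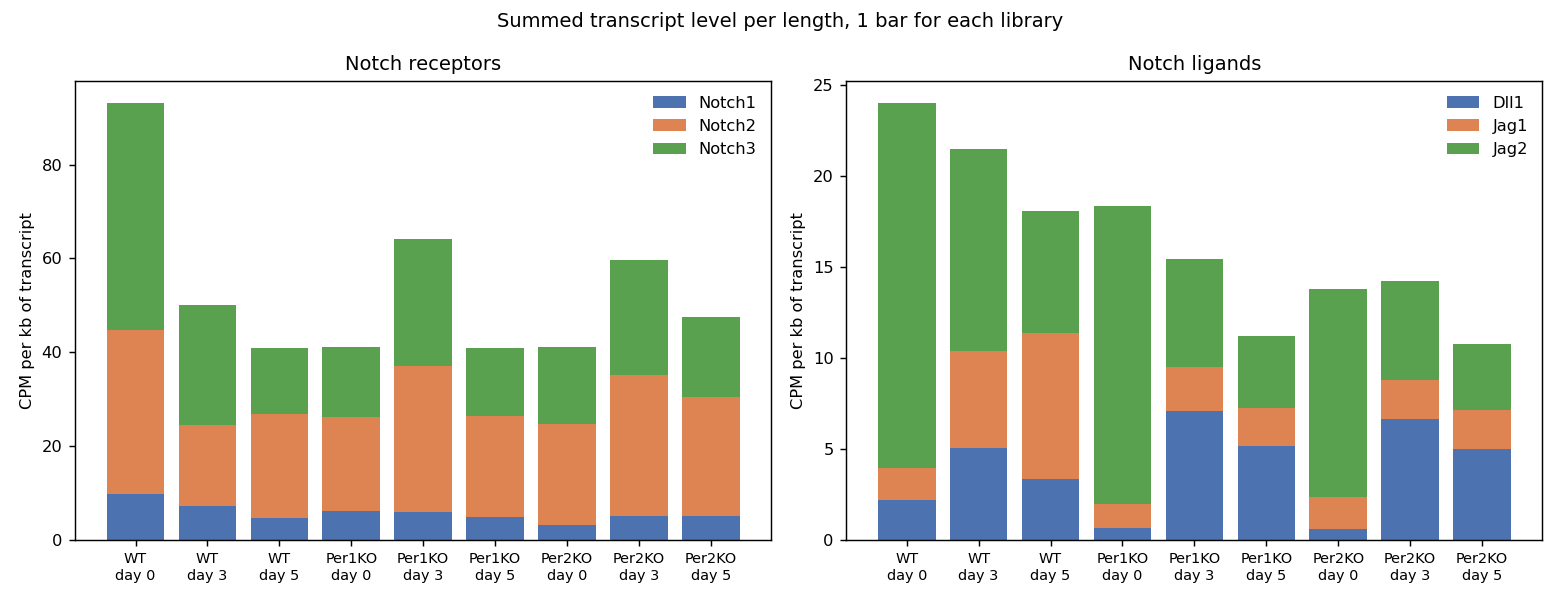
Summed receptor (left) and ligand (right) level in each of the 9 libraries, in CPM per kb of longest transcript, with the contribution of each gene stacked. Jag2 makes up 82.8% to 89.4% of the ligand sum at day 0 in all 3 genotypes. At day 5 Jag1 is the largest part in WT and Dll1 the largest in both knockouts.

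Per transcript length, Jag2 was the main ligand RNA before differentiation in each genotype, with 83.6% of the ligand sum in WT, 89.4% in Per1KO and 82.8% in Per2KO. By day 5 the mixture differed between WT and the knockouts. In WT, Jag1 held 44.6%, Jag2 37.1% and Dll1 18.3%. In Per1KO, Dll1 held 45.9%, Jag2 35.5% and Jag1 18.6%, and in Per2KO the shares were 46.4%, 33.9% and 19.7%. The summed ligand level went from 24.0 to 18.1 CPM per kb in WT between days 0 and 5, from 18.3 to 11.2 CPM per kb in Per1KO and from 13.8 to 10.8 CPM per kb in Per2KO. As with the receptors, each share comes from 1 library and has no test.

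Heyl, a Hey-family repressor and a target of Notch in muscle precursors, differed most from WT among the 10. It was at 36.6, 79.7 and 36.9 CPM in WT on days 0, 3 and 5, at 1.2, 5.78 and 3.72 CPM in Per1KO, and at 1.10, 6.66 and 4.51 CPM in Per2KO. The lowest WT library stands above the highest knockout library, and the WT and knockout groups do not overlap. Heyl was 16.5-fold lower in Per1KO (-4.04 ± 0.37, adjusted p = 3.69e-04) and 14.7-fold lower in Per2KO (-3.88 ± 0.37, adjusted p = 4.30e-04). In bulk RNA, fewer cells that make a transcript and less of it per cell cannot be told apart. The knockout day 0 values rest on 59 and 56 counts, with intervals of 0.911 to 1.54 CPM and 0.833 to 1.43 CPM. Both genotype calls of Heyl held in every alternative run, including GC and length offsets (-3.75 and -3.56). Heyl lies on chromosome 4 (GRCm38, 123233556 to 123249875, plus strand), shares 0% of its 31-base words with other genes, and overlaps no annotated gene.

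Heyl also changed with time. It rose at day 3 by 1.87 ± 0.35 (log2, adjusted p = 0.00590) and was higher at day 5 than at day 0 by 1.13 ± 0.36 (adjusted p = 0.0337). In WT the day 5 level was back at that of day 0, a log2 difference of 0.01, while it stood 1.59 above day 0 in Per1KO and 1.97 above in Per2KO. The difference in response was 1.54 ± 0.29 (adjusted p = 0.0320), from a knockout level that stayed below the WT level on each day. That call was lost with the GC and length offsets (1.33, adjusted p = 0.0582) and without Per1KO day 0 (1.72) or day 5 (1.53) or Per2KO day 0 (1.36), day 3 (1.58) or day 5 (1.46). The day 5 call was lost without the low-count filter (1.11) and without any 1 of the 6 knockout libraries (0.78 to 1.15), and the day 3 call without the Per1KO genotype (1.71).

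Hes6, an atypical Hes protein that antagonises Hes1 and is known to promote differentiation, went up in each genotype. It was at 50.6, 175 and 132 CPM in WT, at 43.1, 91.2 and 123 CPM in Per1KO, and at 27.0, 81.8 and 104 CPM in Per2KO. WT was the highest and Per2KO the lowest on each day, and the WT peak came at day 3 while both knockouts were highest at day 5. Hes6 rose by 1.5 ± 0.19 at day 3 (log2, adjusted p = 9.66e-04) and by 1.62 ± 0.19 at day 5 (adjusted p = 3.70e-04). Both of these calls held in every alternative run. Against WT it was lower by -0.79 ± 0.19 in Per2KO (adjusted p = 0.0230), while in Per1KO it was at -0.43 ± 0.19 (adjusted p = 0.144). The Per2KO call was lost with the GC and length offsets (-0.39, adjusted p = 0.134), in the fit of the 6 libraries compared alone (-0.78), and without WT day 3 (-0.56), Per2KO day 0 (-0.68) or Per2KO day 3 (-0.75). On chromosome 1, Hes6 (91411483 to 91414038, minus strand) begins 1943 bases from the end of Per2 (91415982 to 91459324, minus strand), which is the gene edited in Per2KO. Whether the edit touches Hes6 was not tested.

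Dll1 and Hes6 both rose with differentiation, with Pearson's r of 0.83 between their log2 levels over the 9 libraries, which share genotypes and days. Their promoters are shown because this pair moved together and because myogenic factors of the MyoD family bind E-boxes. The 250 bases before each RefSeq start site (RefSeq on GRCm38.p6) were searched for the E-box CANNTG, which reads the same pattern on both strands and is in capitals below. The Hes6 window is chr1:91414039-91414288 and the Dll1 window chr17:15376933-15377182, both given 5′ to 3′ on the minus strand.
Hes6: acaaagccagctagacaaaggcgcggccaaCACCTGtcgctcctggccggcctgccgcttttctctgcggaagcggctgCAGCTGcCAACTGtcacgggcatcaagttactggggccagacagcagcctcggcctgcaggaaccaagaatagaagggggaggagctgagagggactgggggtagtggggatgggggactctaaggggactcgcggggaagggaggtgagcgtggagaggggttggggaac
Dll1: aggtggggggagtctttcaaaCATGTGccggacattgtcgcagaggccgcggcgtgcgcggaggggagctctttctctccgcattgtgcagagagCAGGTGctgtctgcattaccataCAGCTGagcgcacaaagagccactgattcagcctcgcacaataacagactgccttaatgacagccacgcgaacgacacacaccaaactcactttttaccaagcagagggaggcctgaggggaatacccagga

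Each of these windows holds 3 E-boxes. In Hes6, CACCTG starts at position -220 from the start site, followed by CAGCTG at position -171 and finally CAACTG at position -164. In Dll1, CATGTG starts at position -229, followed by CAGGTG at position -155 and finally CAGCTG at position -132. Of 32851 promoter windows of the same length, 66.2% hold at least 1 E-box and 12.2% hold 3 or more. RefSeq windows matched 7 of the 10 genes. Hes1, Hey1 and Heyl had no window, although Heyl also rose at days 3 and 5. Jag1 has 1 E-box in its window, and Jag2, Notch1, Notch2 and Notch3 have 0. Whether the number of E-boxes goes with the direction of change was not tested. The Notch1 window lies 12841 bases inside the gene as GENCODE annotates it, and the Jag1 and Jag2 start sites lie 124 and 281 bases from the annotated ends, so other start sites of these genes were not covered. For Dll1 and Hes6 the table lists 2 windows each, of which the one nearest the annotated 5′ end is shown, and the other holds 1 E-box in each gene. The run TGGGAA, the core that RBPJ binds, was found on neither strand in any of the 7 windows and occurs in 21.6% of all windows. None of these E-boxes overlap each other. A match describes the sequence only, and sites outside these windows were not searched.

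Hey1 showed its largest differences at day 5. It was at 31.5, 23.5 and 3.52 CPM in WT, at 18.1, 25 and 13.5 CPM in Per1KO, and at 11.9, 28.5 and 14.6 CPM in Per2KO. WT was the highest at day 0 and the lowest at day 5, and the genotypes overlap. The WT day 5 value rests on 16 counts, with an interval of 2.01 to 5.71 CPM that lies below those of both knockouts (12.4 to 14.7 and 13.5 to 15.9 CPM). At that day the single-library log2 difference from WT was 1.92 in Per1KO and 2.04 in Per2KO. Hey1 was called in no comparison by edgeR: over the days it was at 0.04 ± 0.50 in Per1KO and 0.00 ± 0.50 in Per2KO, and its difference in response was 1.82 ± 0.57 (adjusted p = 0.116). The DESeq2 Wald test called the difference in response of Hey1 (1.94, adjusted p = 0.0186).

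Hes1, the classic Notch target and a cyclic repressor in many cells, was the steadiest of the 10. It was at 40.5, 37.8 and 35.4 CPM in WT, at 59.4, 34.5 and 40.0 CPM in Per1KO, and at 39.9, 36.6 and 41.1 CPM in Per2KO. The Per1KO day 0 library is the highest, and the other 8 lie between 34.5 and 41.1 CPM. Its fold change was not called in any comparison by edgeR, with the largest log2 value, -0.35 ± 0.16, at day 3 (adjusted p = 0.129). With the GC and length offsets that day 3 value was -0.51 and called (adjusted p = 0.0298).

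**Figure D4:**
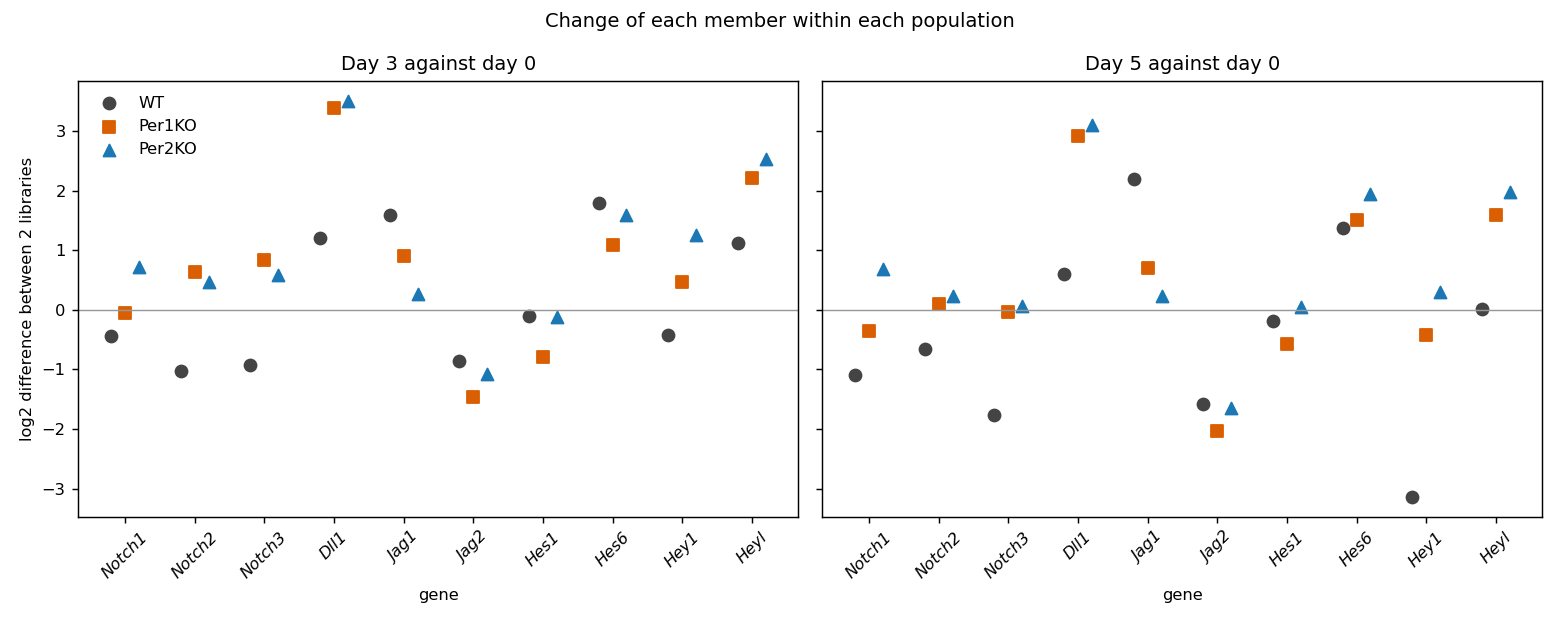
Log2 difference of each gene between day 3 and day 0 (left) and between day 5 and day 0 (right) within WT (grey circles), Per1KO (orange squares) and Per2KO (blue triangles), each point from 2 single libraries and without a test. Dll1, Hes6, Jag1 and Heyl lie above 0 and Jag2 below 0 in all 3 genotypes on both days. Notch3 at day 5 is at -1.77 in WT and near 0 in both knockouts.

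Between the knockouts themselves, 0 of the 10 genes were called, at the adjusted threshold or at an unadjusted p under 0.05, and DESeq2 called 0 as well. Log2 fold changes of Per1KO against Per2KO ran from -0.16 (Heyl) to 0.36 (Hes6). Over all tested genes edgeR called 0.00%, and 88 (0.66%) had an unadjusted p under 0.05. So few genes reached either threshold that 0 of 10 does not show the knockouts to be alike. At day 0 the libraries were farther apart than later: Notch1 was 0.98 higher (log2) in Per1KO at day 0, 0.19 higher at day 3 and -0.06 at day 5. From day 3 to day 5, edgeR called 0 of the 10, where 1.79% of all genes were called, 0.698% higher and 1.09% lower. Of the 10, 2 were lower at an unadjusted p under 0.05, and DESeq2 called 1 lower.

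Single-library differences from WT varied with the day. At day 0, 3 of the 10 were at least 2-fold lower than WT in Per1KO and 5 in Per2KO, where 8.65% and 9.32% of all genes with at least 1 CPM were. None of the 10 was 2-fold higher, where 8.18% and 8.22% of all genes were. At day 3 the counts were 2 and 4 lower, where 9.26% and 10% of all genes were lower, and 0 higher in each, where 8.58% and 8.88% were. At day 5, 2 were lower in each, Heyl and Jag1 (11.5% of all genes in each comparison), and 1 was at least 2-fold higher in each, Hey1 (9.13% in Per1KO and 9.26% in Per2KO). These are differences of single libraries with no replicate check. At day 0, the members' log2 median was -0.74 in Per1KO and -1.15 in Per2KO, beside -0.03 and -0.02 over all genes. At day 5 it was 0.00 and 0.16. Notch3 and Dll1 were at -1.69 each in Per1KO at day 0, and at 0.04 and 0.63 at day 5. Hey1 moved further, from -0.79 at day 0 to 1.92 at day 5 in Per1KO and from -1.40 to 2.04 in Per2KO. Myog was lower in the knockout libraries on all 3 days, and its part in these differences was not tested.

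The rest of the pathway was taken from 54 further genes, of which 39 passed the filter. Each knockout had 1 of the 39 higher and 8 lower than WT, where the shares over all tested genes were 9.26% and 10.1% for Per1KO, and 9.31% and 10.6% for Per2KO. Of 9 genes for receptor cleavage, 3 were lower in both comparisons. Psenen, a gamma-secretase subunit, was at -1.13 ± 0.21 (log2, adjusted p = 0.00911) in Per1KO and -0.995 ± 0.21 (adjusted p = 0.0146) in Per2KO, and Psen2, a catalytic presenilin, at -0.95 ± 0.20 and -0.79 ± 0.20. Psenen is uncertain, since 40.7% of its 31-base words occur in other genes and it overlaps U2af1l4 on the other strand. Numbl, a Numb-type inhibitor of Notch, was lower by -0.91 ± 0.14 (adjusted p = 0.00337) and -0.88 ± 0.14 (adjusted p = 0.00392). It was at 38.8, 49.3 and 55 CPM in WT and at 23.2 to 27.8 CPM in the 6 knockout libraries, which do not overlap. Itch, a ubiquitin ligase that targets Notch, was the 1 higher gene, by 0.46 ± 0.11 and 0.54 ± 0.11. The other lower genes were Furin, Rfng, Epn1, Tle3 and Fbxw7 in both comparisons, named here after their values were seen.

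With differentiation, 6 of the 39 were higher and 1 lower at day 3, and 10 were higher and 3 lower at day 5. Of all tested genes, 18.1% were higher and 16.9% lower at day 3, and 23.2% and 22.9% at day 5, and the counts of higher genes lie near these shares. Maml2, a Mastermind coactivator, rose by 1.79 ± 0.36 at day 3 (adjusted p = 0.00742) and 2.40 ± 0.36 at day 5 (adjusted p = 0.00125). Neurl1a, a Neuralized-type ubiquitin ligase for ligands, rose by 1.79 ± 0.25 and 2.18 ± 0.25 (adjusted p = 3.84e-04 at day 5). It went from 114 to 321 CPM in WT, from 49.6 to 299 CPM in Per1KO and from 49.7 to 288 CPM in Per2KO between days 0 and 5. Neurl1b fell by 1.32 ± 0.32 at day 5 (adjusted p = 0.0119), and Rbpj, the DNA-binding partner of the receptors, fell by 0.61 ± 0.15 (adjusted p = 0.0117). Epn1 was the 1 gene lower at day 3 (-0.34 ± 0.11). Rbpj shares 25.8% of its 31-base words with other genes and Neurl1a 16.1%, so part of their counts may belong elsewhere. Of 7 tested genes listed here as inhibitors of the receptor, 4 were higher at day 5 and 0 lower, beside the same shares of 23.2% and 22.9%. The 4 were Numb, Fbxw7, Dtx2 and Dtx3, named after their values were seen. The list counts Deltex genes as inhibitors, and what they do to the receptor in these cells was not tested. Between day 3 and day 5, and between the knockouts, edgeR called 0 of the 39.

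**Figure D5:**
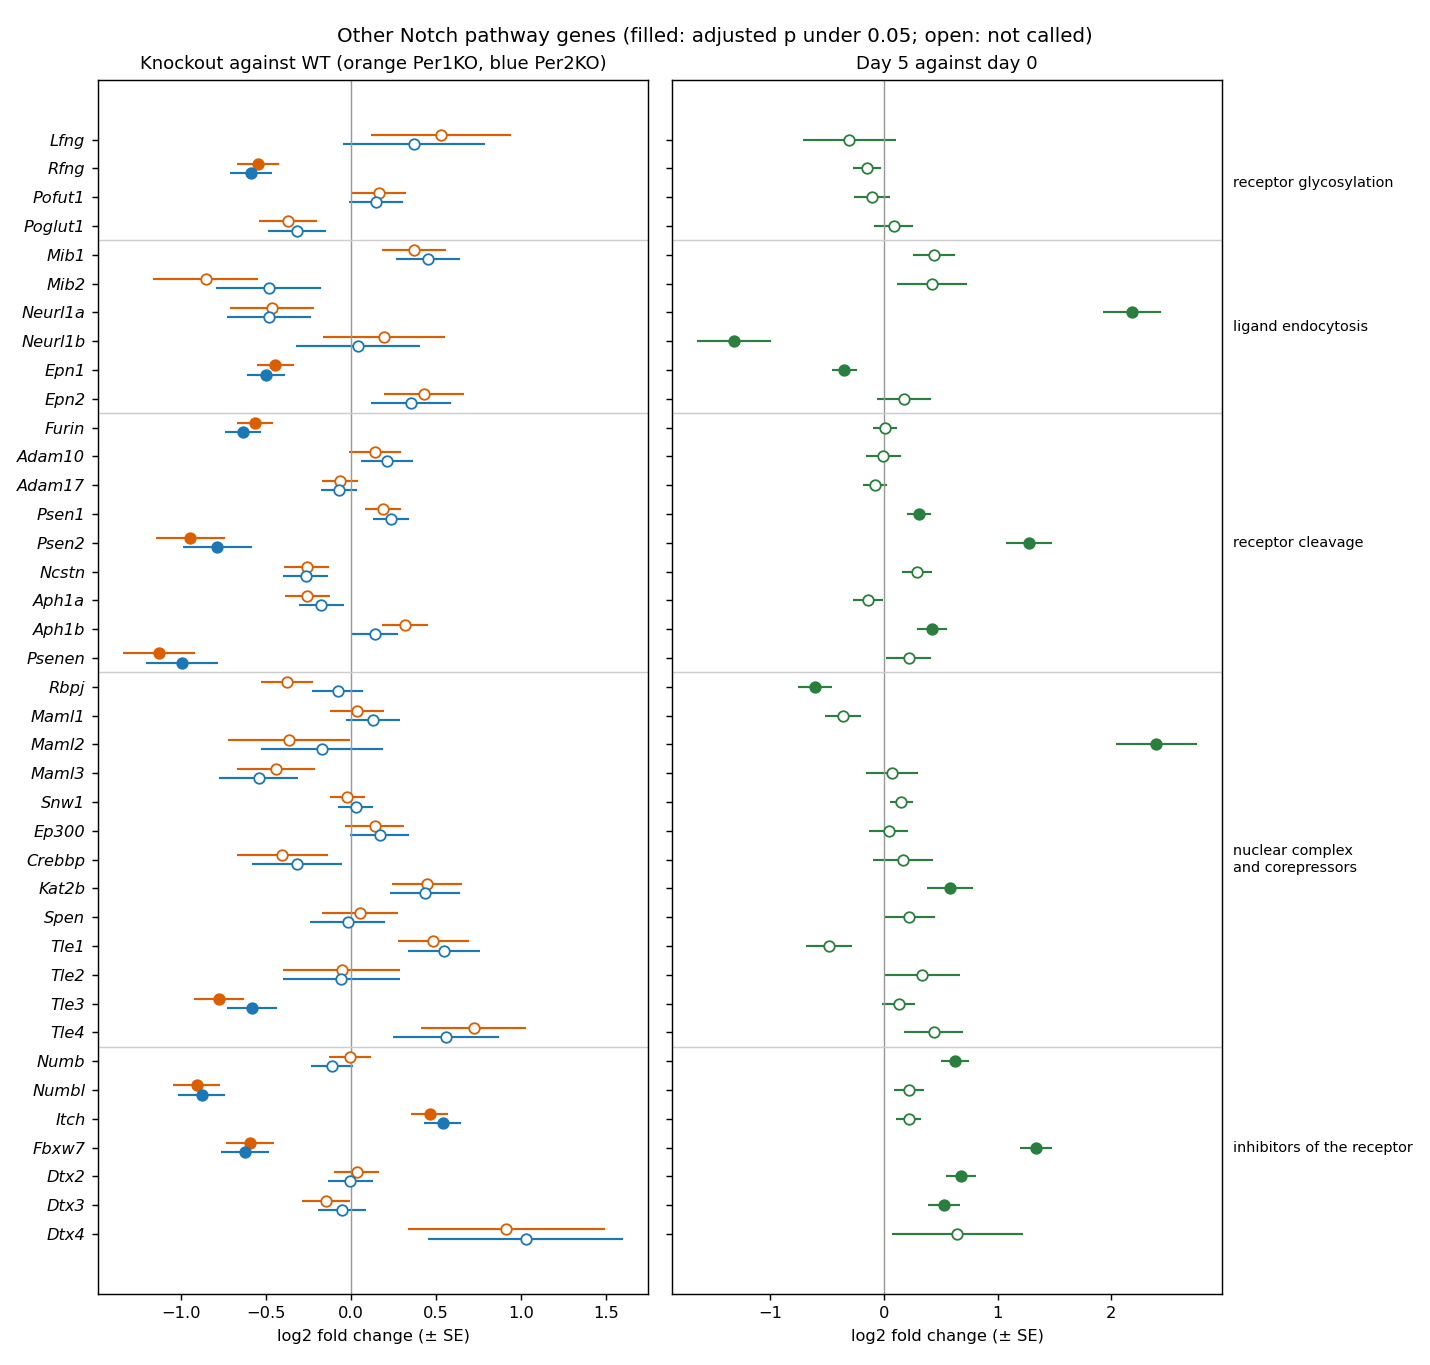
Log2 fold changes with standard errors for the 39 further pathway genes that passed the filter, grouped by role, for Per1KO (orange) and Per2KO (blue) against WT at left and for day 5 against day 0 at right. Filled points have an adjusted p under 0.05. Psenen, Psen2 and Numbl lie farthest to the left among the filled genotype points, and Maml2 and Neurl1a farthest to the right among the filled day points.

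The difference in response was called for 4 of the 39, each with a more upward change from day 0 in the knockouts than in WT. Over all tested genes 4.95% were called, 3.5% higher and 1.45% lower. Dtx4, a Deltex protein that binds the receptors' intracellular part, had the largest value at 2.61 ± 0.26 (log2, adjusted p = 0.00664). It was at 94.2, 54.2 and 41.1 CPM in WT, at 52.0, 192 and 185 CPM in Per1KO, and at 72.1, 183 and 200 CPM in Per2KO. WT went down from day 0 while both knockouts went up, and WT lies below them on days 3 and 5. Neurl1a followed with 1.13 ± 0.16 (adjusted p = 0.0131). Epn2 and Kat2b were the others, named after their values were seen. The same fit called 5 of 8 muscle markers, all with a larger rise from day 0 in the knockouts than in WT. These are changes and not levels, since Myog was lower than WT in both knockouts on all 3 days. The median over the 8 markers was 2.99, and how far this bears on the pathway genes was not tested.

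Genes below the filter were Notch4, Dll3, Dll4, Dlk1, Dlk2, Dner, Mfng, Aph1c, Nrarp, Dtx1, Hes2, Hes3, Hes5, Hes7 and Hey2, 15 in all. Dlk1 and Hes5 had 0 counts in all 9 libraries. Notch4, the receptor best known from endothelium, had 4 to 16 counts in any library. Hes7 lies 10443 bases from Per1 on chromosome 11 and had at most 16 counts.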

How the data were processed

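Per the labels' protocols, poly(A) RNA was sequenced as single reads. CASAVA 1.8, HISAT2 2.1.0 and build mm10 are named in the submitters' processing notes. The counting program, annotation and use of strand are not given in the sources used here. The authors deposited whole-number counts per Ensembl gene, and these were used as deposited. Of 47729 genes, 47224 matched a symbol. Groups came from the titles.

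Counts were tested with edgeR 4.0.16 (robust quasi-likelihood, limma 3.58.1, R 4.3.3) on genotype plus day (4 residual degrees of freedom). The difference in response had 3. Neither number counts what the variance of a gene borrows from other genes. Every adjusted p comes from this test unless DESeq2 1.42.0 is named. Library pairs were compared as log2 CPM with a prior count of 2, without a test. Scripts were tested on simulated data with planted Per1KO and day 5 effects. No difference in response was planted, so its detection was not checked. The alternatives were other normalization, tests, filters, gene sets, GC and length offsets (splines, 5 degrees of freedom) and left-out libraries, days or genotypes, for the 10 genes only. Positions are from GENCODE on GRCm38.

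The members and gene lists were chosen with earlier results of these data known. One listed pathway gene is not reported here, and the counts leave it out. Named besides the 10 are, per comparison, the 2 called pathway genes with the largest rise and the 2 with the largest fall, undetected genes, and, per member, the 2 genes most like it.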

Additional observations from a re-analysis of the deposited data

Results flagged for a closer look

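For 3 of the 10 genes the response to differentiation differed between the knockouts and WT by a test of that difference (the interaction of genotype with days 3 and 5 against day 0, edgeR's quasi-likelihood test). The log2 difference in response was 1.71 for Notch3, 2.34 for Dll1 and 1.54 for Heyl. In WT, Notch3 ran from 388 CPM at day 0 to 114 CPM at day 5, while Per1KO ran from 120 to 117 CPM and Per2KO from 131 to 137 CPM. Dll1 stood 3.39 and 3.51 log2 units above day 0 at day 3 in the knockouts and 1.21 in WT. Heyl was back at its day 0 level at day 5 in WT and above it in both knockouts. These 3 calls rest on 3 WT libraries, and all 3 are lost without Per2KO day 0.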

How the results depend on the processing

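The Heyl differences from WT and the Hes6 and Jag2 differences between days 0 and 3 or 5 stayed called under every alternative run. The Dll1 and Notch3 differences in response stayed called in every fit run except the one without Per2KO day 0. The difference in response could not be fitted without WT day 0 or without all of day 0, and was not run without a genotype. WT day 0 is the only WT base of the difference in response, so no fit could leave it out. The fits run therefore cannot show how far these calls rest on that library. Offsets for GC content and length left 1 of the 10 called in Per1KO and 1 in Per2KO, and they moved the median of all genes by -0.12 at day 3 and -0.14 at day 5 (log2). DESeq2 called 1 at day 5 against day 3 and 6 for the difference in response. Without the low-count filter 3 were called at day 5 against day 0 and 5 for the difference in response. Leaving out 1 library, day or genotype gave 1 to 4 called in Per1KO, 1 to 4 in Per2KO, 2 to 8 at day 3, 2 to 5 at day 5, 0 to 3 from day 3 to day 5 and 0 to 6 for the difference in response. The 8 at day 3 came without WT, where 57.7% of all genes were called, and the 0 for the response without Per2KO day 0. The cause of these changes was not tested. Signs turned only for values not called in the reported fit, and of these only Dll1 in Per1KO was called after turning (0.58 without WT day 0 and 0.55 without day 0). For Per1KO, Notch2 was at 0.042 without the filter, 0.00168 with protein-coding genes only, 0.00319 with the 6 libraries compared alone and 0.23 with the offsets, which also put Notch1 at 0.00711 and Dll1 at 0.0751. At day 3 the offsets put Notch1 at -0.22, Notch2 at -0.30 and Notch3 at -0.059. With libraries left out, Per1KO values ran from -0.61 to 0.025 for Notch1, -0.44 to 0.40 for Notch2, -0.93 to 0.051 for Notch3, -0.62 to 0.58 for Dll1 and -0.46 to 0.80 for Hey1. Per2KO values ran from -0.30 to 0.49 for Notch2, -0.90 to 0.12 for Notch3, -0.76 to 0.48 for Dll1, -0.040 to 0.18 for Hes1 and -0.57 to 0.80 for Hey1. Day 3 values ran from -0.33 to 0.38 for Notch1, -0.29 to 0.55 for Notch2, -0.26 to 0.74 for Notch3 and -0.086 to 1.01 for Hey1, and day 5 values from -0.71 to 0.15 for Notch1, -0.35 to 0.29 for Notch2 and -0.99 to 0.012 for Notch3. Differences in response ran from -0.53 to 0.11 for Hes1 and -0.46 to 0.35 for Hes6. Where a left-out library leaves 1 in a group, that one is assumed to vary like the rest. Depth limits WT most, with 16 counts behind Hey1 at day 5. No paired analysis was possible because the labels carry no replicate numbers, and day is already a term of the fit.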

Other observations

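For each of the 10 genes, the tested protein-coding genes of at least 10 CPM on average with the most similar log2 levels over the 9 libraries were found by Pearson's r, among 9213 candidates. The coefficients describe these 9 libraries, which share genotypes, days and depth, and carry no test. Heyl was closest to Actg2, a smooth muscle actin (r = 0.99), and Borcs8 (r = 0.98). Hes6 was closest to Smyd1, a muscle methyltransferase (r = 0.99), and Egln3, a HIF prolyl hydroxylase (r = 0.99). Jag2, which fell through differentiation, was closest to Ptma and to Hnrnpa1, an RNA-binding protein (both r = 0.99). Dll1 was closest to Pam, an enzyme of peptide amidation, and Pcdhb16, a protocadherin (both r = 0.99). Jag1 was closest to Adamts16 and Acpp (both r = 0.99). Notch3 was closest to Cdc42ep5 and Calm3 (both r = 0.96), Notch2 to Nedd9 (r = 0.97) and Retreg2 (r = 0.95), and Notch1 to Rhog (r = 0.96) and Fam129b (r = 0.94). Hey1 was closest to Strip2 and Carhsp1 (both r = 0.96). Hes1 had the weakest nearest genes, Ppm1g and Ppat (both r = 0.91).

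Among the 10 genes themselves, Dll1 and Hes6 were the most alike (r = 0.83), followed by Notch1 and Notch3 (r = 0.76) and by Jag1 and Heyl (r = 0.73). The most opposed pair was Dll1 and Jag2 (r = -0.68). Hes1 and Heyl, both Notch targets, had r = -0.51, and Hey1 and Heyl had r = -0.01.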
